A study of Homo sapiens with 3 samples.

Results

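Keratin genes encode the intermediate filament proteins of epithelial cells. They were taken from the deposited table as the rows whose Ensembl identifier belongs, in GENCODE release 44, to a protein-coding gene with a symbol of KRT and a digit, which leaves out the keratin-associated proteins (KRTAP). This gave 55 genes of the 62754 in the table, of which 28 are of type I, 26 are of type II and KRT222, a keratin-like gene, is counted under neither. RNA-seq was measured in MCF10A, an immortalized line of human breast epithelial cells that does not form tumours. The cells carried an empty vector of the inducible Retro-X Tet-One system, with no gene inserted, had been selected with puromycin and were harvested without doxycycline. The 3 replicates were of this 1 condition and of batch 1, so no groups could be compared. The labels do not say whether they came from separate cultures, so spreads and p-values below measure only the differences between these samples.

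A keratin filament is built from heterodimers of an acidic type I and a basic type II keratin, and an unpaired keratin is degraded. Each epithelium uses characteristic pairs. KRT5 with KRT14 is the pair of basal cells of stratified and glandular epithelia, KRT8 with KRT18 that of simple epithelia, KRT6 with KRT16 or KRT17 that of wounded or activated epidermis and of skin appendages, KRT1 with KRT10 that of the suprabasal epidermis, and further pairs fill the hair shaft and its inner root sheath. In the mammary gland, luminal cells are known for KRT8, KRT18 and KRT19, with KRT7 also in many of them, and basal cells for KRT5, KRT14 and KRT17. The type II genes lie side by side on chromosome 12 and the type I genes on chromosome 17, except KRT18, which lies beside KRT8.

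Several keratins are recent copies of each other, and the letters that tell them apart decide to which gene a read is assigned. Stretches of 60 coding bases are therefore shown for 3 sets of related keratins whose levels are compared below, read from hg38 on the strand of the gene. Among coding exons of equal length in a set, the stretch whose closest pair of genes differed at the most positions was chosen. It does not show how alike the genes are as a whole. Capitals mark the positions that are not the same in all 3 genes of a set. In the KRT6 set, in exon 2, 8 of the 60 positions differed, against 13 of all 215 coding bases of that exon. The stretches came from KRT6A at chr12:52491556-52491615, KRT6B at chr12:52450440-52450499 and KRT6C at chr12:52472100-52472159, all on the minus strand.
KRT6A: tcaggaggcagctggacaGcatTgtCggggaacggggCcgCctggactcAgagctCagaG
KRT6B: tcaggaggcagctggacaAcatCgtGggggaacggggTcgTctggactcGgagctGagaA
KRT6C: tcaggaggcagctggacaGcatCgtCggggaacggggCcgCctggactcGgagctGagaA

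The KRT14 set joins the basal keratin KRT14 with its activation-associated neighbours, which are less alike than the genes of the other sets. Whole coding sequences were 85.2% (KRT14 and KRT16), 77.97% (KRT14 and KRT17) and 72.5% (KRT16 and KRT17) identical. In exon 2 of these genes, 19 of 60 positions differed between KRT14 at chr17:41584992-41585051, KRT16 at chr17:41611656-41611715 and KRT17 at chr17:41622967-41623026, all on the minus strand.
KRT14: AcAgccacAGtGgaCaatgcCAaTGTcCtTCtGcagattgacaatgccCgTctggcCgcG
KRT16: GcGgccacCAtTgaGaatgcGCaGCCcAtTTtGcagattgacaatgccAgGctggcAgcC
KRT17: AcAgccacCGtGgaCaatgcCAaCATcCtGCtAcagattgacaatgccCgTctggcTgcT

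The KRT81 set holds type II hair keratins. In the chosen stretch 5 of 60 positions differed between exon 5 of KRT81 at chr12:52288027-52288086 on the minus strand, exon 5 of KRT83 at chr12:52316902-52316961 on the minus strand and exon 7 of KRT86 at chr12:52305302-52305361 on the plus strand. KRT81 and KRT86 differed at 3 of them. Over whole coding sequences this set was less alike than the KRT6 set, at 89.3 to 90.1% against 97.5 to 98.5% identity.
KRT81: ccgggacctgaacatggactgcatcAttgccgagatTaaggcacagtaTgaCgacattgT
KRT83: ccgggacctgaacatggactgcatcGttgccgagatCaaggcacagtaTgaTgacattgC
KRT86: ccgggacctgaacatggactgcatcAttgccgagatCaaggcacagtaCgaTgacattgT

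Levels are given in TPM, a unit that corrects read numbers for transcript length and sets the sum of each replicate to 1000000, so that levels of different genes can be compared. Annotated genes had 15273329, 15446347 and 11166546 reads in replicates 1, 2 and 3 by the steps between low values, if the smallest step is 1 read. Protein-coding genes took 91.5, 89.8 and 79.6% of the TPM of replicates 1, 2 and 3, so a protein-coding gene tends to read lower in replicate 3 on this scale. Of the markers of the labelled cell type, both epithelial genes, CDH1 and EPCAM, reached a mean of 1 TPM, as did 56.7% of all protein-coding genes. The basal epithelial markers ITGA6, LAMB3, ITGB4, COL17A1, CDH3 and TP63 did so too, from TP63 at 49.8 ± 6.15 TPM (SD, n = 3) to ITGA6, an integrin of hemidesmosomes, at 813 ± 100.5 TPM. The luminal list reached 1 TPM in 2 of 7 genes, with GATA3 at 12.8 ± 2.25 TPM and FOXA1 at 1.105 ± 0.283 TPM, and held ELF5, ANKRD30A and KIT at 0 reads. Its sum was 11.9 to 16.1 TPM. The contractile myoepithelial list reached 1 TPM in 1 of 4 genes, the fibroblast list in 2 of 5 and the endothelial list in 1 of 3, with summed levels of 5.36 to 11.2, 13.6 to 14.8 and 1.57 to 1.997 TPM. Of the immune markers, PTPRC, CD68 and CD3E were below 1 TPM. CNN1, LUM, CDH5 and CD3E were at 0 reads in every replicate.

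Of the 55 keratin genes, 16 (29.1%) had a mean of at least 1 TPM, the cutoff at which the study takes a transcript as expressed, and the same 16 passed it in every replicate. Among all 20046 protein-coding genes the share was 56.7%. A further 7 keratins (12.7%) had reads but less than 1 TPM, and 32 (58.2%) had 0 reads in every replicate, against 26.2% of protein-coding genes. Most of the expressed members were abundant, with 11 genes at 10 TPM or more and 8 at 100 TPM or more. The median was 0 TPM over the 55 keratins and 3.75 TPM over all protein-coding genes, whereas among genes of at least 1 TPM it was 103 TPM for keratins and 24.9 TPM for protein-coding genes. Keratins took 2.08, 2.04 and 1.63% of all TPM in replicates 1, 2 and 3, a mean of 1.92 ± 0.251% (SD, n = 3), and 2.28, 2.27 and 2.05% of the TPM of protein-coding genes.

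**Figure D1:**
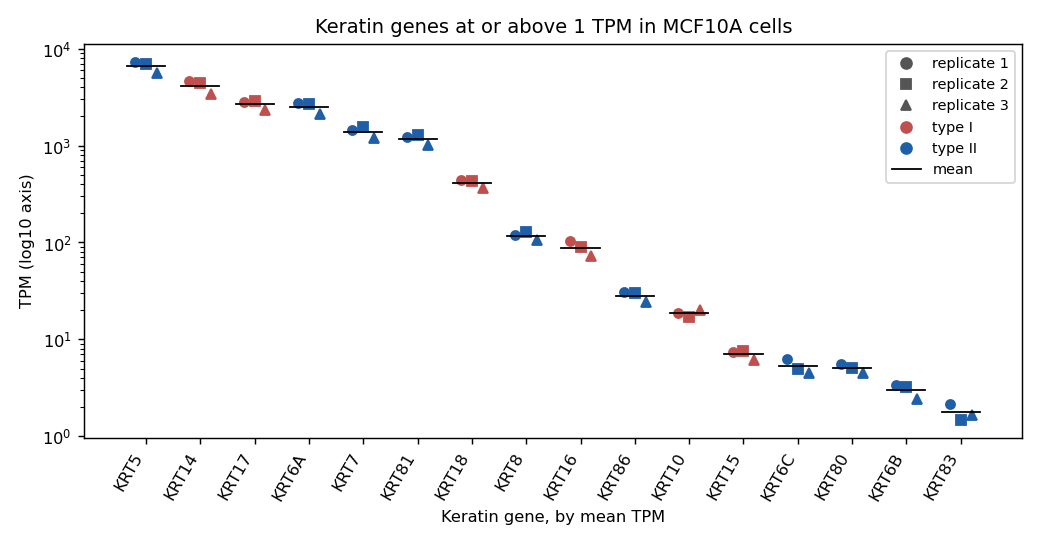
TPM of the 16 keratin genes whose mean was 1 TPM or more, on a log10 axis, in order of their mean. Symbols are the 3 replicates, the colour gives the type and the line is the mean, and levels run from 6612 TPM for KRT5 to 1.76 TPM for KRT83, with replicate 3 the lowest in 14 of the 16 genes.

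The basal keratins were the largest class, and all 3 of its genes passed 1 TPM. KRT5 (ENSG00000186081, chr12:52514575-52520530, 9 exons), the type II keratin of basal cells, had 7295, 6935 and 5606 TPM in replicates 1, 2 and 3, a mean of 6612 ± 890 TPM. It was the keratin with the highest level and ranked 6 among all protein-coding genes. Its partner KRT14 (ENSG00000186847, chr17:41582279-41586895, 8 exons) had 4589, 4404 and 3439 TPM, a mean of 4144 ± 618 TPM and rank 13. The values of KRT5 lay above those of KRT14 in every replicate, and the ranges did not overlap. KRT15, a type I keratin of basal keratinocytes and of the hair follicle bulge, had 7.44, 7.63 and 6.18 TPM, a mean of 7.08 ± 0.785 TPM. KRT14 thus exceeded KRT15, the other type I member of the class, 584 ± 31.0-fold on the deposited scale. The deposited length of KRT15 was that of its longest transcript, 2.19 times that of its canonical transcript, and with canonical lengths the difference was 265 ± 14.1-fold.

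The keratins of stress, activation and skin appendages passed 1 TPM in 5 of 6 genes. KRT17 (ENSG00000128422, chr17:41619442-41624842), a type I keratin induced in wounded epidermis and present in basal cells of glands, had 2808, 2870 and 2330 TPM, a mean of 2669 ± 296 TPM. KRT6A (ENSG00000205420, chr12:52487176-52493257), a type II keratin induced in the same setting, had 2726, 2663 and 2119 TPM, a mean of 2503 ± 334 TPM. KRT17 was above KRT6A in every replicate, but their ranges overlapped. KRT16, the type I keratin usually named as the partner of KRT6, was far lower, with 103, 89.8 and 71.9 TPM and a mean of 88.2 ± 15.5 TPM.

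Among the 3 copies of KRT6 nearly all signal lay in KRT6A. KRT6C had 76, 62 and 47 reads in replicates 1, 2 and 3, which gave 6.27, 4.98 and 4.56 TPM, and KRT6B had 41, 40 and 25 reads, which gave 3.39, 3.22 and 2.43 TPM. KRT6A was 478 ± 51.5-fold above KRT6C and 834 ± 34.4-fold above KRT6B. The coding sequences of these genes were 97.5% (KRT6A and KRT6B), 97.9% (KRT6A and KRT6C) and 98.5% (KRT6B and KRT6C) identical, so the low values of KRT6B and KRT6C may hold reads of KRT6A and are uncertain. KRT75, a type II keratin of the companion layer of the hair follicle, had 0, 4 and 2 reads and stayed below 1 TPM.

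The simple epithelial keratins passed 1 TPM in 3 of 5 genes. KRT7 (ENSG00000135480, chr12:52232520-52252186), a type II keratin of simple and glandular epithelia, had 1438, 1539 and 1185 TPM, a mean of 1387 ± 182 TPM. KRT18 (ENSG00000111057, chr12:52948871-52952906), the type I partner of KRT8, had 441, 436 and 361 TPM, a mean of 413 ± 44.8 TPM. KRT8 (ENSG00000170421, chr12:52897187-52949954) had 119, 128 and 106 TPM, a mean of 118 ± 11.4 TPM. The type II gene of this pair was the lower in every replicate, and KRT7 exceeded KRT8 by 11.8 ± 0.464-fold, or by 7.30 ± 0.288-fold with canonical lengths. KRT19, a type I keratin and a marker of luminal cells, had 1, 0 and 0 reads, and KRT20, known from the gut and the urothelium, had 0 reads in every replicate.

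Hair keratins were divided by type. Of the 6 type II genes 3 passed 1 TPM, and of the 11 type I genes, which supply their partners in the hair shaft, none had a read. KRT81 (ENSG00000205426, chr12:52285913-52291534) had 1235, 1288 and 1009 TPM, a mean of 1177 ± 148 TPM and rank 90 among protein-coding genes. KRT86 had 30.8, 30.1 and 24.1 TPM, a mean of 28.4 ± 3.67 TPM, and KRT83 had 2.14, 1.48 and 1.67 TPM from 21, 15 and 14 reads. KRT81 was 41.5 ± 1.34-fold above KRT86 and 683 ± 161-fold above KRT83. The coding sequence of KRT81 was 90.1% identical to that of KRT86 and 89.3% to that of KRT83. The low values of KRT86 and KRT83 may therefore hold reads of KRT81 and are uncertain. KRT85, a type II keratin of the hair matrix and cuticle, had 0, 2 and 0 reads.

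Keratins of differentiated stratified epithelium and of the inner root sheath were nearly without reads. Of the 13 suprabasal and other stratified keratins only KRT10 passed 1 TPM, with 18.8, 16.96 and 20.1 TPM and a mean of 18.6 ± 1.56 TPM. It was the only keratin of the 16 with its highest value in replicate 3. Its partner KRT1 had 0, 0 and 3 reads, KRT9 of palm and sole epidermis had 7, 3 and 3 reads, KRT13 of the oral mucosa had 1, 1 and 0 reads, and KRT78 had 0, 1 and 0 reads. All 8 inner root sheath keratins had 0 reads. Among the remaining genes KRT80, a type II keratin of several epithelia, had 5.57, 5.13 and 4.53 TPM, a mean of 5.08 ± 0.519 TPM, and KRT23 and KRT222 had 0 reads.

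The 32 keratins with 0 reads in every replicate were KRT20 of the simple class, KRT2, KRT3, KRT4, KRT12, KRT24, KRT76, KRT77 and KRT79 of the stratified class, KRT25, KRT26, KRT27, KRT28, KRT71, KRT72, KRT73 and KRT74 of the inner root sheath, KRT31, KRT32, KRT33A, KRT33B, KRT34, KRT35, KRT36, KRT37, KRT38, KRT39, KRT40, KRT82 and KRT84 of the hair, and KRT23 and KRT222. A count of 0 allows up to 3 reads, which corresponded to 0.165 to 0.516 TPM over these genes and replicates. These limits cover counting error only. In bulk RNA, a low level in all cells and a higher level in few cells cannot be told apart.

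By share of keratin TPM, the basal class took 57.1, 55.6 and 55.6% in replicates 1, 2 and 3, a mean of 56.1 ± 0.882% (SD, n = 3). The stress and appendage class took 27.5 ± 0.349%, the simple epithelial class 10.01 ± 0.367% and the hair class 6.30 ± 0.193%. The ranges of these 4 classes did not overlap. The stratified class took 0.102 ± 0.0221%, the 3 remaining genes 0.0266 ± 0.00136%, and the inner root sheath class 0%. KRT5 and KRT14 alone held 56.0 ± 0.883% of keratin TPM, and 8 genes held 99.2 ± 0.0362%.

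**Figure D2:**
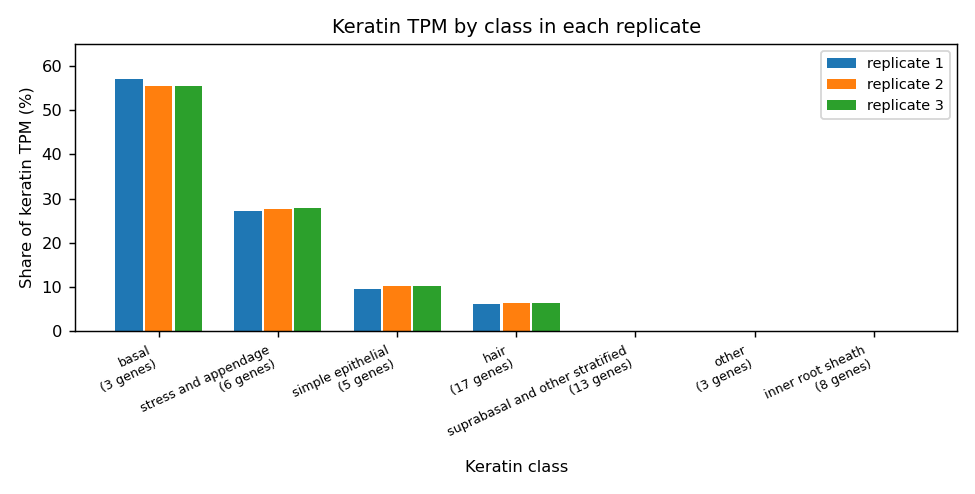
Share of the summed keratin TPM, in percent, taken by each keratin class, with 1 bar for each replicate and the number of genes of the class in brackets. The basal class was at 55.6 to 57.1%, the stress and appendage class at 27.1 to 27.8%, the simple class at 9.60 to 10.3% and the hair class at 6.09 to 6.46%.

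To see whether the types that pair in filaments were matched in RNA, the ratio of type II to type I was taken within each replicate. Type II keratins passed 1 TPM in 10 of 26 genes and type I keratins in 6 of 28, and type II took 61.7 ± 0.0403% of keratin TPM. The 10 include KRT86, KRT83, KRT6B and KRT6C, whose low values may hold reads of KRT81 or KRT6A. The log2 ratio of summed type II to summed type I TPM was 0.69 in each of the 3 replicates, with an SD of 0.0025, which is a 1.61-fold excess of type II. An exact two-sided sign-flip permutation test over the replicates gave p = 0.25, the smallest p that 3 replicates allow, so no ratio here could pass 0.05. The balance within classes was uneven. In the simple class type II stood at 7.85 ± 0.348% of keratin TPM against 2.16 ± 0.0524% for type I, in the basal class at 34.5 ± 0.534% against 21.6 ± 0.458%, in the stress and appendage class at 13.1 ± 0.0430% against 14.4 ± 0.392%, and in the hair class at 6.30 ± 0.193% against 0%.

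Of the 9 type II and type I partners compared on the log2(TPM + 1) scale, KRT5 and KRT14 were the nearest to equal among pairs in which both genes passed 1 TPM. Their log2 ratio was 0.67, 0.65 and 0.70 in replicates 1, 2 and 3, a mean of 0.68 ± 0.03 (SD) or a 1.60-fold excess of KRT5. KRT8 lay below KRT18, with a log2 ratio of -1.88, -1.76 and -1.76, a mean of -1.80 ± 0.07 or a 3.48-fold excess of KRT18. The direction in this simple pair was the opposite of that over the whole family. KRT6A exceeded KRT16 by a log2 ratio of 4.82 ± 0.09, whereas KRT6B was below KRT17 by -9.38 ± 0.05. KRT5 exceeded KRT15 by 9.67 ± 0.08. KRT6A with KRT17 was not among the 9 pairs, although these 2 genes were nearer to equal than KRT5 and KRT14. Without a pseudocount KRT17 was 1.07 ± 0.0356-fold of KRT6A as deposited, and 1.29 ± 0.0430-fold with canonical lengths.

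In the remaining pairs 1 or both partners were near 0 reads, and the ratio on this scale depends on the pseudocount. KRT7 and KRT8 both stood without KRT19, a type I partner of either in many simple epithelia, at ratios of 10.37 ± 0.20 and 6.83 ± 0.16. KRT10 stood without KRT1, at a ratio of KRT1 to KRT10 of -4.17 ± 0.13. KRT4 and KRT13, the pair of the oral and oesophageal mucosa, were both near 0, with a ratio of -0.09 ± 0.08. The adjusted p over the 9 pairs was 0.281 for 8 of them and 0.5 for KRT4 and KRT13, by the exact sign-flip permutation test with Benjamini-Hochberg adjustment.

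**Figure D3:**
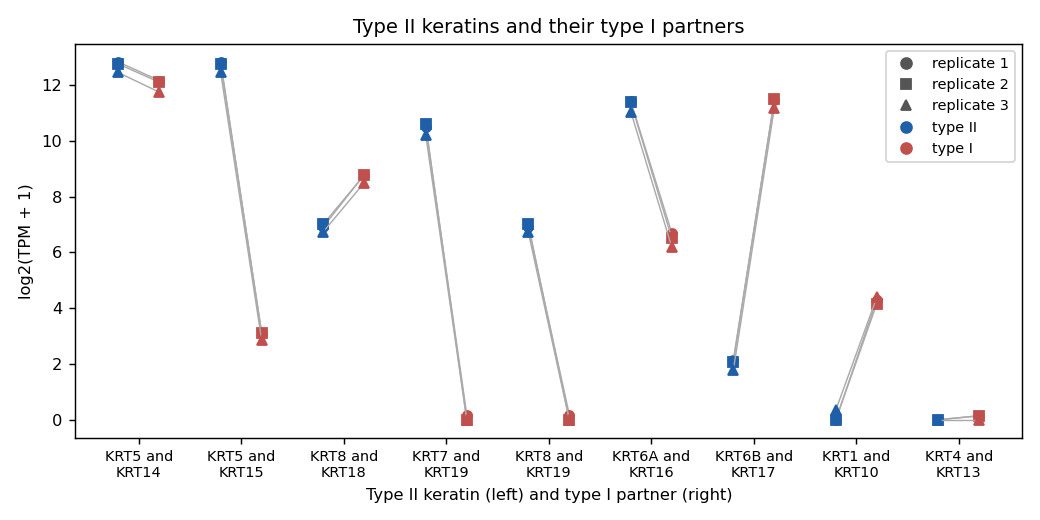
Levels on the log2(TPM + 1) scale of the 9 pairs of type II (left of each pair) and type I (right) keratins in each of the 3 replicates, coloured by type. KRT5 and KRT14 are close at the top, KRT18 is above KRT8, and KRT7 and KRT8 stand far above KRT19, which had 1 read in all.

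The order of the 16 keratins was clear of the replicate spread over most of its length. Of 15 neighbours in the order of mean TPM, 11 had ranges that did not overlap and 14 had the same gene higher in every replicate. The neighbours whose ranges overlapped were KRT17 and KRT6A, KRT7 and KRT81, KRT15 and KRT6C, and KRT6C and KRT80. Only KRT6C and KRT80 were not in the same order in every replicate, so these do not differ beyond their spread. The coefficient of variation of the 16 genes was 8.41 to 19.0%.

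Replicate 3 was the lowest for 14 of the 16 keratins (87.5%), against 78.5% of the 11360 protein-coding genes with at least 1 TPM. KRT10 and KRT83 were the exceptions. When TPM was rescaled so that protein-coding genes summed to 1000000, it was the lowest for 12 of 16 (75%), against 45.9% of protein-coding genes. The median log2 ratio of replicate 3 to replicate 1 was -0.32 over the 16 keratins and -0.24 over the protein-coding genes, and -0.12 and -0.04 after the rescaling. The median SD of log2(TPM + 1) was 0.19 for keratins and 0.16 for protein-coding genes, and 0.09 and 0.11 after it. The shares of keratin TPM and the ratios of types given above are taken within a replicate and do not change with this scaling.

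Along the chromosomes the expressed keratins lay in blocks. On chromosome 12, 27 keratin genes lie between 52168996 and 52952906 (hg38), a span of 784 kb, and 11 of them passed 1 TPM. From the low coordinate upwards, a block of 5 expressed genes from KRT80 to KRT83 was followed by 4 genes below 1 TPM from KRT85 to KRT75, by 4 expressed genes from KRT6B to KRT5, by 12 genes below 1 TPM over 305 kb from KRT71 to KRT78, and by KRT8 with KRT18 at the far end. The stretch of 12 genes holds keratins of the inner root sheath and of stratified epithelium. Among the expressed genes, the low values of KRT86, KRT83, KRT6B and KRT6C may hold reads of KRT81 or KRT6A. The extent of the blocks that include them is therefore uncertain. On chromosome 17, 28 keratin genes lie between 40654665 and 41624842, a span of 970 kb, and 5 passed 1 TPM. KRT14, KRT16 and KRT17 formed a block of 42.6 kb at one end, 2 genes lay between this block and KRT15, and KRT10 lay apart from them beyond 15 genes below 1 TPM, from KRT12 to KRT13, over 644 kb. These 15 genes include all 11 type I hair keratins.

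**Figure D4:**
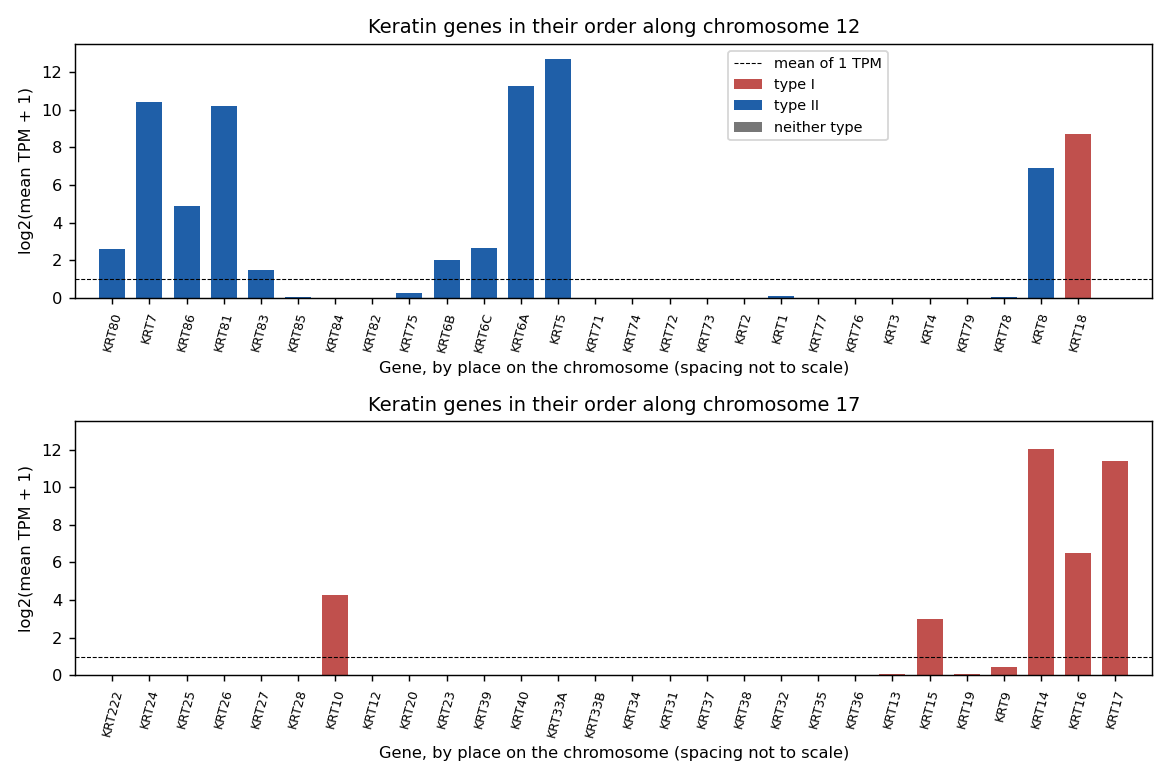
Mean level of every keratin gene, as log2(mean TPM + 1), in the order of the genes along chromosome 12 (top, 27 genes) and chromosome 17 (bottom, 28 genes), coloured by type with a dashed line at 1 TPM. Expressed genes stand in blocks, KRT18 is the 1 type I gene on chromosome 12, and 12 neighbouring genes on chromosome 12 and 15 on chromosome 17 are below the line. The low values of KRT86, KRT83, KRT6B and KRT6C within the blocks are uncertain.

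The gene models differed by type as well as by place. In their canonical transcripts 24 of 26 type II genes had 9 exons, and 14 of 28 type I genes had 8. The median canonical transcript length was 2293 bases for type II and 1713 bases for type I. By these medians the same number of reads gives a lower TPM for a type II keratin. Single genes depart from this, as the deposited length of KRT7, of type II, was 1616 bases against 1628 for KRT14. Without division by length the log2 ratio of type II to type I reads was 1.00 ± 0.01, against 0.69 in TPM. Coding sequences within type II were a median of 61.5% identical (43.9 to 98.5% over 325 pairs of genes) and within type I 56.7% (40.3 to 95.1% over 378 pairs).

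How much of each expressed keratin can be told from other genes was measured as the share of its 50-base windows that also occur in a transcript of another gene. The share was highest for KRT6C at 53.1% and KRT6B at 46.6%, followed by KRT81 at 44.6%, KRT86 at 39.9%, KRT8 at 39.2%, KRT6A at 39.2% and KRT18 at 35.3%. The sharing partner of the first 4 and of KRT6A was mainly another keratin of the same set, whereas KRT8 and KRT18 shared windows with 36 and 43 other genes. The largest single sharers were the pseudogenes KRT8P3, with 22.8% of the windows of KRT8, and KRT18P11, with 11.1% of those of KRT18. KRT14 was at 24.2%, KRT16 at 21.8%, KRT17 at 17.4% and KRT83 at 12.8%, while KRT5 was at 4.52%, KRT7 at 1.08% and KRT10 at 0%. These shares depend on the window length. With windows of 100 bases the share was 0% for KRT18 and KRT83, 0.353% for KRT17, 6.05% for KRT14 and 7.12% for KRT8. It was still 31.4% for KRT6C, 30.3% for KRT81 and 27.6% for KRT86. Which window length matches the reads was not tested. Of the 32 keratins with 0 reads, 3 shared over 20% of their windows, namely KRT222, KRT33A and KRT33B, and the median was 1.31%. By this measure most of these genes shared little sequence with other genes. Whether the authors' counting bears on their reading of 0 was not tested.

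When reads of each keratin were divided by its windows found in no other gene, as if shared windows had yielded no reads, KRT8 read 261 in place of 118 TPM, KRT18 796 in place of 413 TPM and KRT81 1774 in place of 1177 TPM, whereas KRT5 read 5768 in place of 6612 TPM. This placed KRT6A above KRT17, KRT81 above KRT7 and KRT6B above KRT80, and left the other places in the order as they were. The log2 ratio of type II to type I was 0.50 under this setting. Levels of KRT8, KRT18, KRT81, KRT6B, KRT6C and KRT15 moved by over 1.5-fold. This setting also replaces the length of the longest transcript by that of the canonical one, and the canonical length alone gave 154 TPM for KRT8, 498 TPM for KRT18 and 12.7 TPM for KRT15, which shares only 1.02% of its windows. For KRT81, KRT6B and KRT6C the canonical length alone gave lower values than deposited, of 958, 2.46 and 4.29 TPM. The deposited lengths of these genes were already 0.995 to 0.996 times the canonical ones. Their levels fell to 0.81 times the deposited ones, as did those of KRT5, KRT14, KRT7 and KRT16. TPM has a fixed sum over all genes, so this common factor reflects the rescaling and not these keratins. With the canonical length alone KRT5 read 5386 TPM, so its lower value above includes this rescaling. How the authors treated reads that map to several genes is not given in the sources used here, so the part of such reads in these levels was not tested.

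**Figure D5:**
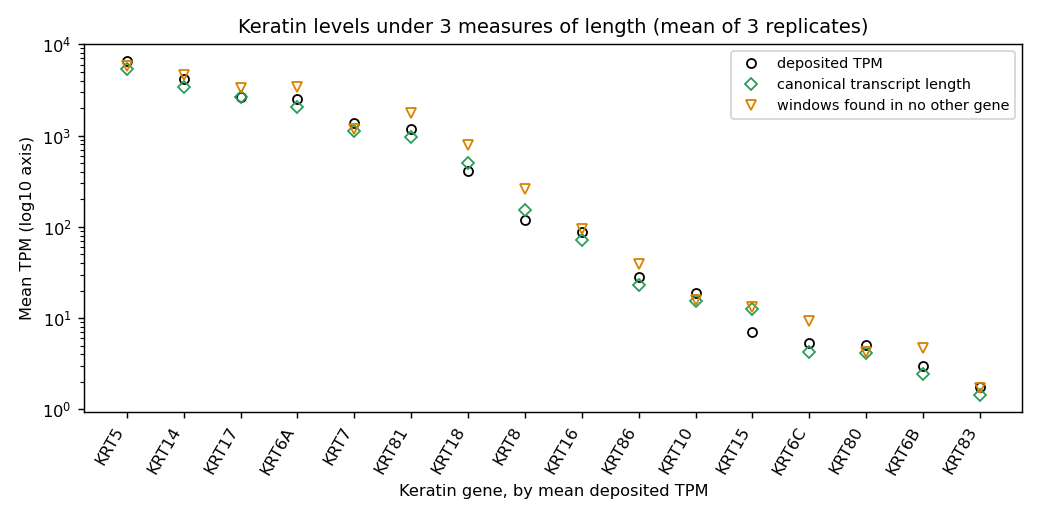
Mean TPM, on a log10 axis, of the 16 keratins with at least 1 TPM as deposited, with canonical transcript lengths, and with the number of 50-base windows found in no other gene as the length. The symbols of KRT5 and KRT7 lie close together, while KRT14 runs from 3372 to 4586 TPM, KRT8 from 118 to 261 TPM and KRT15 from 7.08 to 13.2 TPM.

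Among the 16 expressed keratins, exons shared with a gene on the opposite strand made up the largest part of KRT18, in which 26.5% of the canonical exonic bases overlap exons of KRT8. The share was 14.6% for KRT86, with 3 genes known by identifier only, 13.6% for KRT7, with KRT7-AS, 3.89% for KRT17 and 2.85% for KRT10, with KRT10-AS1. Whether the authors' counting used strand is not given in the sources used here, and without it reads from such bases cannot be assigned to either gene with certainty. On the same strand the overlap was 5.61% for KRT86. Among keratins with 0 reads, KRT37 overlapped by 36.5% and KRT73 by 27.8% on the opposite strand, and KRT222 by 37.4% on the same strand.

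Keratin pseudogenes are copies without an intact reading frame, and KRT8 and KRT18 have left many of them across the genome. Of the 149 counted here, 7 had a mean of at least 1 TPM and 106 had 0 reads. The highest were KRT8P12, a transcribed processed pseudogene on chromosome 3, with 9.79, 9.92 and 7.51 TPM, and KRT17P3 on chromosome 17 with 9.22, 11.3 and 5.86 TPM. The 51 pseudogenes named for KRT8 held 476 reads over the 3 replicates, against 5134 reads of KRT8 itself, or 9.27%. The corresponding shares were 1.09% for the 66 pseudogenes of KRT18 and 0.233% for the 8 of KRT17. The 5 pseudogenes of KRT19 had 0 reads, as KRT19 nearly did. Adding these reads to the parent genes left the log2 ratio of type II to type I at 0.69.

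Promoter sequence, from 250 bases before to 50 bases after the transcription start, was matched in RefSeq (GRCh38.p14) for 34 of the 55 keratins, of which KRT5, KRT8 and KRT10 passed 1 TPM. The 60 bases before the start are shown for these, from KRT5 at chr12:52520395-52520454, KRT8 at chr12:52926470-52926529 and KRT10 at chr17:40822615-40822674, each on the minus strand. Those of KRT5 and KRT8 lie inside the gene models, whose upstream ends are at 52520530 and 52949954, so other annotated starts lie further upstream. Which start the cells used, and whether these bases bear on level, was not tested. Capitals mark a match to the TATA box letters TATAAA.
KRT5: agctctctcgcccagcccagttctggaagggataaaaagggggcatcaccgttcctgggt
KRT8: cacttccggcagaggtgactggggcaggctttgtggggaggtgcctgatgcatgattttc
KRT10: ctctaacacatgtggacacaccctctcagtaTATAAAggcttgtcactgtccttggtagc

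The match in KRT10 begins 29 bases before the start. The 300 bases were searched on both strands, and a gene with several promoters in the table was counted once, with a match in any of them. TATAAA was present in 21 of the 34 keratin genes (61.8%), against 13.99% of all 27305 genes in the table. The GC box letters GGGCGG were present in 6 of 34 (17.6%), against 48.3% of all, and the AP-1 letters TGANTCA in 0 of 34, against 9.37% of all. Over the 35116 single promoters the shares were 11.5, 45.0 and 7.71%. None of these motifs contains another, and a match of letters is a description and not a binding site. As 31 of the 34 genes were below 1 TPM, these shares mostly describe keratins that were not expressed here.

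Genes that work with keratins were taken as chosen lists, so counts within them describe only these lists. Of 14 genes that link or organise keratin filaments, all had at least 1 TPM, against 56.7% of all protein-coding genes. Plectin (PLEC), which ties keratins to hemidesmosomes, had 486, 534 and 407 TPM, and desmoplakin (DSP), which ties them to desmosomes, had 379, 398 and 308 TPM. PKP1, a desmosomal plakophilin of stratified epithelium, was the lowest at 1.21 ± 0.0234 TPM. Of the 16 other intermediate filament genes 6 had at least 1 TPM, beside the same 56.7%. Vimentin (VIM), the filament protein of mesenchymal cells, had 1638, 1628 and 1333 TPM, a mean of 1533 ± 173 TPM, which lay between KRT6A and KRT7. Desmin (DES), GFAP and the neurofilament genes were below 1 TPM.

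Of 11 transcription factors known from keratinocytes or from keratin promoters, 8 had at least 1 TPM, against 56.7% of all protein-coding genes. GRHL2 was listed at 0 in every replicate, and whether its transcripts could be counted in these data was not tested. KLF5 was the highest at 151 ± 24.4 TPM, and TP63, the factor of basal epithelial identity, was at 49.8 ± 6.15 TPM. TFAP2A had 67.6 ± 10.3 TPM and KLF4, known from suprabasal differentiation, 15.6 ± 1.46 TPM. ZNF750 and OVOL1, factors of late epidermal differentiation, had 3, 0 and 3 reads and 2, 0 and 0 reads. None of the 94 keratin-associated protein genes, whose products embed hair keratins in the hair shaft, reached 1 TPM. Of these, 93 had 0 reads, against 26.2% of all protein-coding genes at 0 reads, while the hair keratin KRT81 was at 1177 TPM.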

How the data were processed

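RNA of 3 replicates of MCF10A cells with an empty vector was made into libraries depleted of ribosomal RNA, from 300 ng of RNA each. By the study's methods and the submitters' processing notes, the authors checked the reads, mapped them to hg38 and counted them with Seq2science, with STAR, fastp and MultiQC named without versions. The annotation release, the use of strand and the treatment of reads that map to several genes are not given in the sources used here. The authors deposited TPM values of 62754 genes with no pooling of replicates, and these were used as they are.

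By Ensembl identifier, 62700 genes had an entry in GENCODE release 44 (hg38). To recover reads, TPM was multiplied by gene length, and the smallest product above 0 of a replicate was taken as 1 read. The length was that of the longest transcript of the gene, with 1 base less for each exon. All values (100%) came out whole within 0.01, and the depth of 11166546 to 15446347 reads sets the limit of 3 reads for a gene at 0. Depth rests on the smallest step being 1 read. Recovery of reads and the permutation test were tested on simulated data.

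With 1 condition, no test across genes was run. Expressed genes were those with a mean of at least 1 TPM. Neighbours in level were compared by the ranges of their replicates, and pairs by an exact two-sided sign-flip permutation test on log2(TPM + 1) with Benjamini-Hochberg adjustment. Shared sequence was counted as windows of 50 bases, and for comparison of 100 bases, of the canonical transcript found in any transcript of another gene. Identity was taken from global alignments of coding sequences. A pseudogene of this naming on chromosome Y was left out. Every keratin is named: with the TPM of each replicate at or above 1 TPM, with its reads below it, and in a list where it had 0 reads. Other lists are given by counts with their highest and lowest members, and further genes of them were named after their values were seen. Some genes of the marker lists are not reported here. The members, classes and lists were chosen with earlier results of these data known.

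Alternatives covered the cutoff, the summary of replicates, a filter on reads, the pseudocount, the scaling, the transcript length and leaving out each replicate. For the order of levels all alternatives were added after seeing the data, as were the type ratio without KRT81 or with pseudogene reads added, and the windows found in no other gene as the length. Python 3.11.15 was used with numpy 2.4.6, pandas 2.3.3, scipy 1.17.1, matplotlib 3.10.9 and biopython 1.88.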

Additional observations from a re-analysis of the deposited data

How the results depend on the processing

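The number of keratins at or above 1 TPM was 15 with a cutoff of 2 TPM and 16 under the other alternatives. The keratin share of all TPM, 1.92% as deposited, was 2.20% with TPM scaled to protein-coding genes, 1.63% with canonical transcript lengths and 1.38% as a share of reads, and 1.84 to 2.06% when 1 replicate was left out. The median SD of log2(TPM + 1), 0.19, was 0.093 with the scaling to protein-coding genes and 0.0 with no filter on low values, where most keratins were at 0, and it was 0.047 without replicate 3 and 0.21 without replicate 1, the ends of that range. The log2 ratio of type II to type I, 0.69, kept its sign at 0.56 with canonical lengths, 0.54 without KRT81, 0.50 with the windows found in no other gene as the length and 1.00 for reads not divided by length. The 9 pairs kept their sign with a pseudocount of 0.1 TPM, with canonical lengths and without each replicate, but 3 replicates cannot bring a sign-flip p under 0.05, so the side of that threshold says nothing about stability. The ratios of KRT7 and KRT8 to KRT19 moved from 10.37 to 13.34 and from 6.83 to 9.78, and that of KRT1 to KRT10 from -4.17 to -6.91, with a pseudocount of 0.1 TPM. Without replicate 1, KRT80 stood above KRT6C. Of the 23 keratins with reads, 14 moved by over 1 SD with canonical lengths, 1 of them (KRT15) by over 1.5-fold. The ratio of each level to the deposited one had a median of 0.81 over the 23 keratins, and 3 keratins were higher than deposited. Keratins of nearly unchanged length, such as KRT5, also fell to 0.81 times the deposited level. TPM is rescaled over all genes, so these moves and the 1.63% share do not describe the keratins alone. No paired analysis was possible because there is only 1 condition. Levels under 1 TPM rest on 13 reads at most over the 3 replicates, and differences among them were not detectable at this depth.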

Other observations

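The nuclear lamins, which form the intermediate filaments under the nuclear membrane, were all expressed. LMNA, which encodes lamins A and C, had 443, 434 and 343 TPM in replicates 1, 2 and 3, a mean of 407 ± 55.2 TPM (SD, n = 3), next to 413 ± 44.8 TPM for KRT18. LMNB2 had 235 ± 35.7 TPM and LMNB1 227 ± 23.1 TPM, and their ranges overlapped. Of the lens filament genes, BFSP1 had 5.67, 5.51 and 5.35 TPM and BFSP2 had 0 reads. Among the filament organisers, FAM83H, which recruits casein kinase to keratin filaments, had 184 ± 26.1 TPM, and CSNK1A1, casein kinase 1 alpha, had 140 ± 13.0 TPM. The plakophilins of desmosomes were unequal, with PKP3 at 140 ± 23.03 TPM, PKP2 at 66.5 ± 8.40 TPM and PKP1 at 1.21 ± 0.0234 TPM, in that order in every replicate.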
